A study of Rattus norvegicus with 4 samples.

Results

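The genes described here across 4 arrays are 10 in number: 5 that encode CCN proteins (Cyr61, Ctgf, Nov, Wisp1 and Wisp2) and 5 others that are widely read as targets of the transcriptional regulators YAP and TEAD (Crim1, Ankrd1, Amotl2, Lats2 and Axl). They were taken by symbol from the authors' table, which holds 12 probes for these 10 genes among 21473 probes. All 10 were bright enough on average to enter the test, which ran over 13681 features of the whole array. The tested features are named genes, each represented by its brightest probe, and unnamed probes.

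The arrays hold RNA from bone marrow cells of Wistar rats aged 6 weeks, kept for 15 days at high density (2 arrays) or at regular density (2 arrays). The submitters name the cells endothelial progenitor cells and describe 2 independent experiments. No treatment other than density is named, and the sources used here give no seeding numbers. Nothing in them ties a replicate number to 1 experiment in both groups, or says which animals gave the marrow, so p-values measure the spread between these arrays, which may be technical.

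CCN proteins are secreted, cysteine-rich proteins of the extracellular matrix that bind integrins, proteoglycans and growth factors and so alter how cells adhere, divide and make matrix. Cyr61 and Ctgf, together with Ankrd1, are the usual readouts of YAP and its relative TAZ (Wwtr1), coactivators that lack a DNA-binding domain of their own and act through the TEAD factors. The Hippo kinases Lats1 and Lats2, which Stk3 and Stk4 activate, phosphorylate YAP and TAZ and hold them outside the nucleus. Crowding is known to have this effect in many cultured cells. In mesenchymal and vascular cells the same genes also answer to TGF-beta, to Wnt signals and to serum response factor, so none of them reads YAP alone.

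TEAD factors bind a core of 6 bases, GGAATG. RefSeq's table of promoters (rat build GRCr8) holds 5 of the 10 genes, of which Ctgf, Cyr61 and Amotl2 carry this core in the 250 bases before the transcript start. The 3 stretches with a match are shown with the core in capitals (GGAATG on the gene's strand, CATTCC where it lies on the other strand), and that of Crim1, which had the largest rise of the 10 genes, is shown beside them without a match. All are written 5′ to 3′ on the strand of the gene. They lie at chr1:22624615-22624864 on the minus strand (Ctgf), chr2:237225690-237225939 on the minus strand (Cyr61), chr8:112182376-112182625 on the plus strand (Amotl2) and chr6:22622417-22622666 on the minus strand (Crim1).
Ctgf: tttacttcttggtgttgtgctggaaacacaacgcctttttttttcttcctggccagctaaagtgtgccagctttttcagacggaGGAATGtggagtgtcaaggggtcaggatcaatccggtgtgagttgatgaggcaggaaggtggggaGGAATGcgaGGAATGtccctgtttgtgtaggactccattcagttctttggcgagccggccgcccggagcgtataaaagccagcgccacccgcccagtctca
Cyr61: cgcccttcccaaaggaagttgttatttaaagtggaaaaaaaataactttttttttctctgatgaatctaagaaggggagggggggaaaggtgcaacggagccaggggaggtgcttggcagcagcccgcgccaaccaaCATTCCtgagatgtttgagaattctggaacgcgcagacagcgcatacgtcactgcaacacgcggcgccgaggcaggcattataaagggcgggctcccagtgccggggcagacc
Amotl2: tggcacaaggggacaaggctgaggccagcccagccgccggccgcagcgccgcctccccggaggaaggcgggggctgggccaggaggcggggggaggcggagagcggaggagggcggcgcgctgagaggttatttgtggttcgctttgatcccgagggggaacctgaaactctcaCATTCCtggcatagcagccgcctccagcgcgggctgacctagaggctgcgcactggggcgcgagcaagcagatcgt
Crim1: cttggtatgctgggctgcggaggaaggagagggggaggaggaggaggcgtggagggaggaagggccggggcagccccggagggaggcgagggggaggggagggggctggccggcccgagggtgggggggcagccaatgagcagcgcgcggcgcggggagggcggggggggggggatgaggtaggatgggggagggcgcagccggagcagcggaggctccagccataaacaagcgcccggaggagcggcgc

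Ctgf held 3 copies, which begin 166, 101 and 92 bases before the start. Cyr61 held 1 copy, 113 to 108 bases before the start, and Amotl2 held 1 copy, 76 to 71 bases before it. Neither Crim1 nor Axl held one in this window, which says only that these letters are not there. Searched on both strands in the same way, 12.1% of 33469 promoters held at least 1 copy and 0.0807% held at least 3. A match is a description of the sequence and does not show that a factor binds there.

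**Figure D1:**
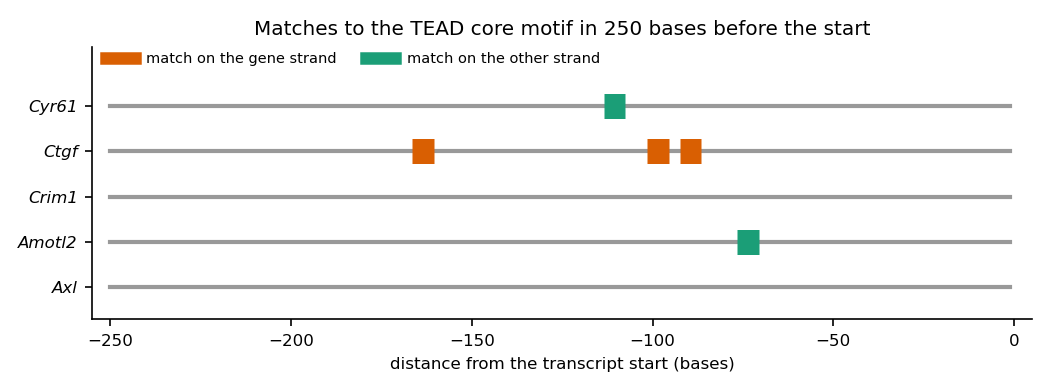
Matches to the 6-base TEAD core in the 250 bases before the transcript start of the 5 genes with a RefSeq promoter; the horizontal axis is the distance from the start in bases, and the colour gives the strand. Ctgf holds 3 matches, Cyr61 and Amotl2 hold 1 each, and Crim1 and Axl hold none.

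Each array was scaled to the 75th percentile of its probes, an intensity of 386.0 and 462.4 at high density and of 355.0 and 434.5 at regular density. Background, taken from the 99th percentile of negative controls, stood at 28.2 to 37.0. Of 15 endothelial markers on the array, 7 lay above background on all 4 arrays and 4 on none, and Pecam1 and Cd34 lay above it on 0 high density arrays and on 1 and 0 regular density arrays. Kdr lay above it on 1 high density array and 0 regular density arrays, and the progenitor marker Prom1 on 2 and 0. Vwf and Cdh5 lay above it on all 4, and so did the leukocyte marker Ptprc and the fibroblast markers Col1a1 and Pdgfra. Over all features, 30.9% were called at an adjusted p under 0.05 with limma, 13.0% higher and 17.9% lower at high density.

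High density culture split the CCN family. Cyr61 was 1.74-fold higher at high density, Nov was 2.03-fold lower and Wisp2 was 1.77-fold lower, while Ctgf and Wisp1 did not pass the test (limma, n = 2 arrays per group). Outside the family, Crim1 was 3.02-fold higher, and Amotl2, Lats2 and Axl did not pass. Ankrd1 was called lower, but only 1 of 2 high density arrays read its probe above background, so the size of its fall is not well measured. Of the 10 genes, 2 rose and 3 fell, 5 in all, beside 30.9% of all features. With a fold of 2 or more as well, 1 gene rose (Crim1), beside 4.64% of all features, and 2 fell (Nov and Ankrd1), beside 1.70%. Ankrd1 passed the filter on dim probes (a mean log2 value of 5.62) only through regular density, so its place in these counts is no support for them. The median log2 change was 0.03 over the 10 genes and -0.08 over all features. The median size of the change, without its sign, was 0.57 over the 10 genes and 0.29 over all features. Ankrd1 enters the medians of the 10 genes too, and these genes were chosen with earlier results known, so the larger size is a description. The high and regular density arrays did not overlap for 8 of the 10 genes, Ankrd1 among them, beside 69.7% of all features.

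**Figure D2:**
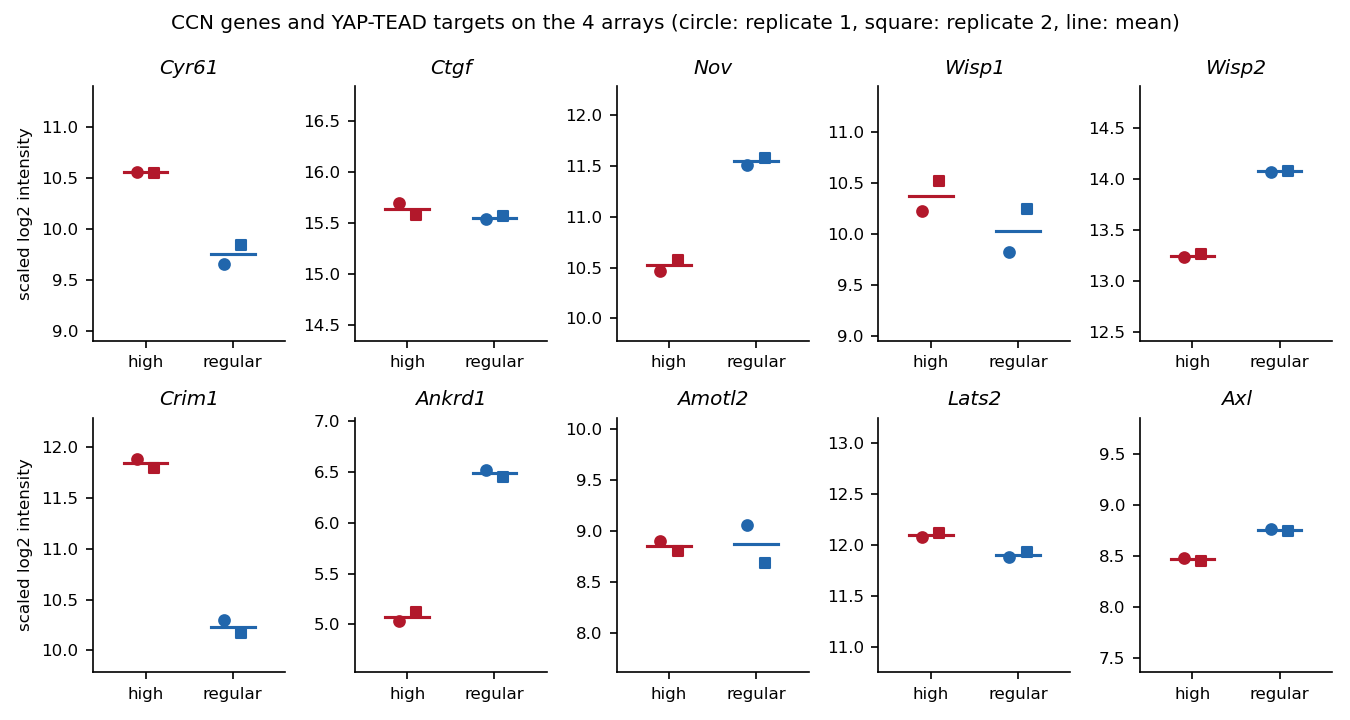
Scaled log2 intensity of each of the 10 genes (vertical axis, the same span of log2 units in every panel) on the high density arrays (left, red) and regular density arrays (right, blue); circles are replicate 1, squares replicate 2 and lines the group means. Cyr61 and Crim1 lie higher and Nov, Wisp2 and Ankrd1 lower at high density, with no overlap between groups.

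Cyr61 (now Ccn1, Entrez gene 83476) encodes a matrix protein that supports adhesion and the growth of new vessels, and it is induced rapidly by growth factors. Its probe read an intensity of 1428 and 1706 at high density, against 705.7 and 980.6 at regular density. On the scaled log2 scale the level was 10.56 ± 0.0026 at high density and 9.75 ± 0.13 at regular density (SD, n = 2 each). The high density arrays were close together and above both regular density arrays. Cyr61 rose by 0.80 on the log2 scale (SE 0.10, adjusted p = 0.00327 with limma), and by 0.90 and 0.71 within replicate numbers 1 and 2.

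Ctgf (now Ccn2, Entrez gene 64032), a promoter of matrix production and fibrosis and the second standard readout of YAP, was very bright in both groups. Its probe read 50356 and 56464 at high density, against 41436 and 51750 at regular density. The brightest probe of an array read 113621 to 128963, and the files used here hold no saturation flags. On the scaled log2 scale Ctgf stood at 15.70 and 15.58 at high density and at 15.54 and 15.57 at regular density, so the groups lay apart by a margin smaller than the spread within the high density group. The log2 change was 0.09 (SE 0.10, 95% interval -0.16 to 0.33, adjusted p = 0.540 with limma).

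The result for Ctgf depended on the scaling. In the authors' normalized log2 values Ctgf stood at 15.79 and 15.78 at high density and at 15.32 and 15.47 at regular density. With those values its log2 change was 0.39 (adjusted p = 0.0197 with limma), with quantile scaling 0.38 (adjusted p = 0.0222) and with cyclic loess 0.41 (adjusted p = 0.0195), all past the threshold, whereas median scaling gave -0.04. The probe is printed 10 times on each array. The spots ran from 42055 to 58647 and from 48175 to 63222 on the high density arrays, and from 38271 to 47902 and from 44646 to 59073 on the regular density arrays. The SD over the spots was 0.11 to 0.18 log2 on the 4 arrays.

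The changes of Cyr61 and Ctgf were also set beside each other within each array. Scaling to a percentile does not enter there, although scaling that depends on brightness does. Set against its mean at regular density, the log2 ratio of Cyr61 to Ctgf was 0.66 and 0.77 at high density and -0.08 and 0.08 at regular density. The difference between the changes of the 2 genes was 0.71 log2, and 0.74 and 0.69 within replicate numbers 1 and 2. It was smaller, 0.45, in the authors' values, 0.46 under quantile scaling and 0.49 under cyclic loess. The same difference between Cyr61 and Nov was 1.82, between Cyr61 and Wisp2 1.63 and between Cyr61 and Wisp1 0.46. None of these differences was tested. The arrays of the 2 groups did not overlap for any of them under scaling to a percentile. Of single features 69.7% did not overlap either, and no share over pairs of genes was computed, so this is a description.

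Nov (now Ccn3, Entrez gene 81526) encodes a CCN protein that restrains the growth of vascular smooth muscle cells in culture. Its probe read 1343 and 1721 at high density, against 2539 and 3238 at regular density. Scaled log2 levels were 10.52 ± 0.07 at high density and 11.54 ± 0.04 at regular density (SD, n = 2 each), so the groups lay far apart relative to their spread. Nov fell by 1.02 on the log2 scale (SE 0.10, adjusted p = 9.61e-04 with limma), and its change was -1.04 and -1.0 within replicate numbers 1 and 2.

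Wisp2 (now Ccn5, Entrez gene 29576) encodes the shortest member of the family, which lacks the carboxy-terminal domain of the others and, like Nov, restrains growth of vascular smooth muscle. Its probe read 9221 and 11109 at high density, against 14995 and 18444 at regular density. Scaled log2 levels were 13.24 and 13.26 at high density and 14.07 and 14.08 at regular density, the tightest pairs among the CCN genes that fell. Wisp2 fell by 0.82 on the log2 scale (SE 0.09, adjusted p = 0.00189 with limma), with changes of -0.83 and -0.82 within replicate numbers 1 and 2. Its 10 spots had an SD of 0.02 to 0.08 log2 on each array, and the highest spot at high density (13.33) lay below the lowest spot at regular density (13.89). The change was smaller, -0.58, under quantile scaling, in the authors' values and under cyclic loess, and it passed the threshold in each.

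Wisp1 (now Ccn4, Entrez gene 65154), a CCN gene first known as a Wnt target, read 1133 and 1663 at high density, against 787.3 and 1286 at regular density. The arrays overlapped, with scaled log2 values of 10.22 and 10.52 at high density and 9.82 and 10.24 at regular density. Its log2 change was 0.34 (SE 0.17, 95% interval -0.06 to 0.75, adjusted p = 0.168 with limma), and 0.40 and 0.28 within replicate numbers 1 and 2. In both groups the second replicate was the higher of the pair. With the replicate number as a block the change of 0.34 passed the threshold (adjusted p = 0.00667 with limma), and it was 0.55 without regular density replicate 2 and 0.13 without regular density replicate 1.

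The remaining family member, Wisp3 (now Ccn6), was named in the spot table through its RefSeq accession. One of its 2 probes read 13.2 and 14.4 at high density, against 9.76 and 1.81 at regular density. The other read 15.0 and 1.95 at high density, against 11.4 and 2.03 at regular density. Neither lay above background on any array.

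The authors' table names no assembly for its coordinates. There the probe of Cyr61 is placed on chromosome 2 from 243824364 to 243824423 and that of Ctgf on chromosome 1 from 21327574 to 21327633. The probe of Nov is placed on chromosome 7 from 91169611 to 91169670, that of Wisp1 on the same chromosome from 104291538 to 104291597, and that of Wisp2 on chromosome 3 from 154760083 to 154760142. The table pairs each with an mRNA accession and does not say which exon or untranslated region it lies in.

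Crim1 (Entrez gene 298744) encodes a membrane protein with cysteine-rich repeats that binds bone morphogenetic proteins, and it had the largest rise of the 10 genes. Its probe, on chromosome 6 from 1140817 to 1140876 in the authors' table, read 3543 and 4089 at high density, against 1102 and 1248 at regular density. Scaled log2 levels were 11.83 ± 0.06 at high density and 10.24 ± 0.09 at regular density (SD, n = 2 each). Crim1 rose by 1.59 on the log2 scale (SE 0.10, adjusted p = 2.40e-04 with limma), and by 1.58 and 1.61 within replicate numbers 1 and 2. All 10 spots on each high density array, from 11.66 to 11.98 log2, lay above all spots on the regular density arrays, from 10.01 to 10.38. Its change exceeded that of Ctgf by 1.51 log2 within the arrays.

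**Figure D3:**
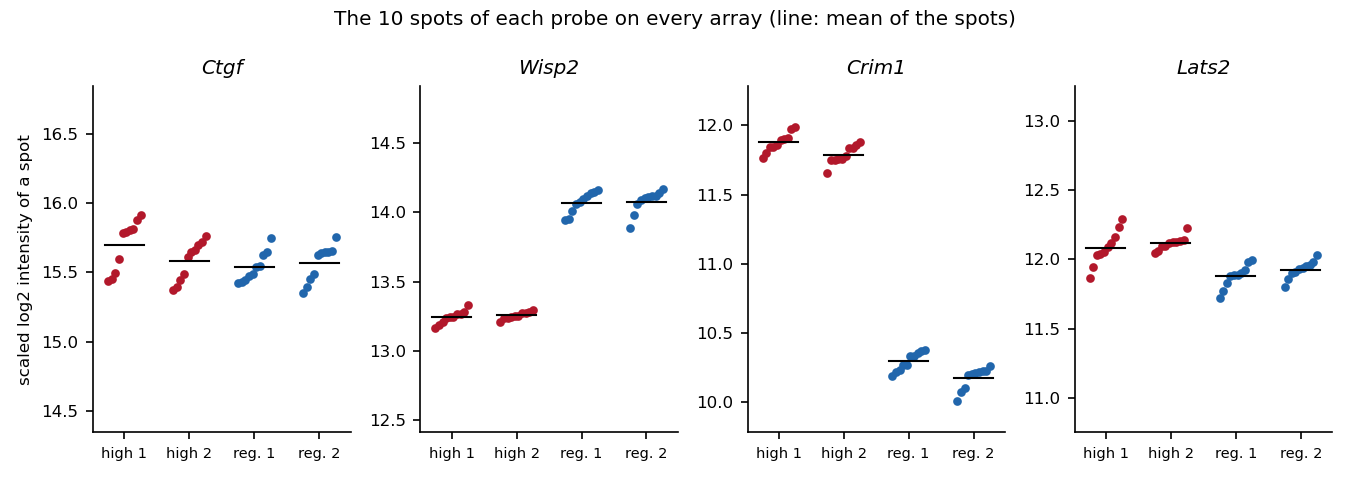
Scaled log2 intensity (vertical axis) of the 10 spots of the Ctgf, Wisp2, Crim1 and Lats2 probes on each array, high density in red and regular density in blue; each point is a spot and each line the mean of the spots. The spots of Crim1 and Wisp2 do not overlap between high and regular density arrays, whereas those of Ctgf do. Repeated spots on an array read the same RNA, so they are not replicates of a density.

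Ankrd1 (Entrez gene 27064) encodes a muscle ankyrin repeat protein found in the nucleus and in the sarcomere of heart muscle, and it is the third usual readout of YAP. Its probe, on chromosome 1 from 240316831 to 240316890 in the authors' table, read 30.9 and 39.5 at high density, against 79.8 and 93.2 at regular density. The first high density array lay under its background of 34.5 and the second above its background of 28.2, while both regular density arrays lay above theirs. The group means were 5.07 at high density and 6.48 at regular density on the scaled log2 scale, on either side of the filter of 5.62. The log2 change was -1.41 (SE 0.21, adjusted p = 0.00567 with limma). With no filter it had an adjusted p of 4.51e-04 with limma, and that fit lowered the adjusted p of Cyr61, Nov and Crim1 too. Without high density replicate 1, the array under background, the change was -1.36. The direction was the same in each fit, and the size is uncertain this close to background. Among the 3 usual readouts of YAP, Cyr61 was thus called higher. Ctgf did not pass under the main scaling but passed as higher under quantile scaling, cyclic loess and in the authors' values. The lower reading of Ankrd1 is a description, since it passed the main filter only through regular density.

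Amotl2 and Lats2 restrain YAP and are themselves induced by it, so that they form a feedback loop. Amotl2 (Entrez gene 65157), which encodes an angiomotin-like junction protein that binds YAP, read 453.3 and 505.7 at high density, against 466.6 and 441.1 at regular density. The regular density arrays lay on either side of the high density arrays, and the log2 change was -0.03 (SE 0.14, 95% interval -0.37 to 0.32, adjusted p = 0.897 with limma). It was 0.08 without scaling, 0.01 under cyclic loess, 0.02 without high density replicate 2 and 0.16 without regular density replicate 1, so it has no settled sign.

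Lats2 (Entrez gene 305922), the kinase that phosphorylates YAP, read 4238 and 5037 at high density, against 3308 and 4148 at regular density. Scaled log2 levels were 12.08 and 12.12 at high density and 11.88 and 11.93 at regular density, which did not overlap. The log2 change was 0.20 (SE 0.09, 95% interval -0.03 to 0.42, adjusted p = 0.151 with limma). A second, dimmer probe in the same gene gave 0.26 (SE 0.13, adjusted p = 0.176 with every probe as a feature in limma). The change of the brighter probe passed the threshold in the authors' values (0.32, adjusted p = 0.0390 with limma) and under cyclic loess (0.37, adjusted p = 0.0292).

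Axl (Entrez gene 308444) encodes a receptor tyrosine kinase activated by the ligand Gas6. Its brighter probe read 337.4 and 396.9 at high density, against 377.7 and 456.1 at regular density. Scaled log2 levels were 8.48 and 8.45 at high density and 8.76 and 8.74 at regular density, and the log2 change was -0.29 (SE 0.10, 95% interval -0.52 to -0.05, adjusted p = 0.0655 with limma). The change was -0.28 and -0.29 within replicate numbers 1 and 2, and with the replicate number as a block it passed the threshold (adjusted p = 0.0159 with limma). The other probe, designed to a second Axl transcript, gave -0.45 (SE 0.11, adjusted p = 0.0262 with every probe as a feature), so the 2 probes had the same sign and fell on different sides of the threshold. The mean of both probes gave -0.37 (adjusted p = 0.0348 with limma).

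**Figure D4:**
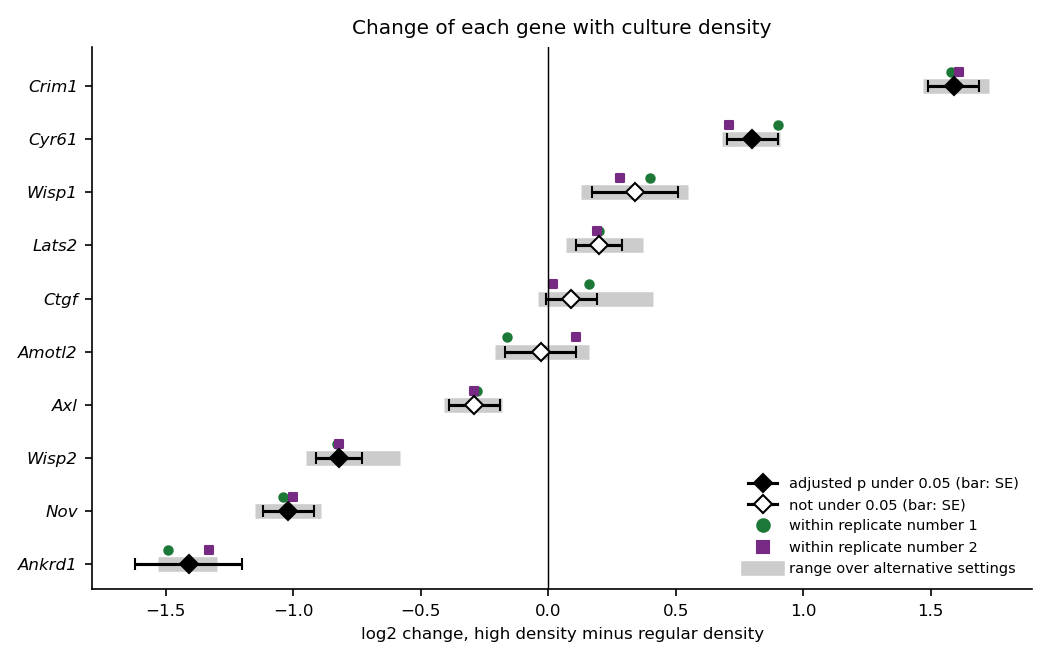
Log2 change of each of the 10 genes, high density minus regular density (horizontal axis), with its SE; filled diamonds passed an adjusted p of 0.05, green circles and purple squares are the changes within replicate numbers 1 and 2, and grey bars span the alternative settings. Crim1, Cyr61, Nov, Wisp2 and Ankrd1 keep their sign over the whole grey bar, and the bars of Ctgf and Amotl2 reach both sides of 0.

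Markers of other cells moved with density too, and their counts stand beside 13.0% of all features higher and 17.9% lower. Of 9 tested smooth muscle markers 8 were higher at high density and 0 lower, and the summed scaled intensity of the 11 on the array was 162353 to 168684 at high density, against 20046 to 21118 at regular density. One of them, Cnn1, entered the test only through high density. Myh11, the myosin heavy chain that defines differentiated smooth muscle, had a log2 change of 5.18 (SE 0.09, adjusted p = 5.31e-06 with limma), and the smooth muscle actin Acta2 one of 3.06 (SE 0.10). Of 14 fibroblast and stromal markers 4 were higher and 2 lower, with sums of 305232 to 323439 at high density and 282109 to 318430 at regular density. Of 13 tested macrophage and monocyte markers 7 were higher and 1 lower, with sums of 109377 to 116029 at high density and 104660 to 109253 at regular density. The lower marker was Cd14, which fell by 0.38 on the log2 scale with an adjusted p of 0.0487 in limma. Under quantile scaling, without scaling, under cyclic loess and in the authors' values 0 macrophage and monocyte markers were lower. Under median scaling 1 was lower. Of 5 tested leukocyte and progenitor markers 3 were higher and 0 lower, with sums of 5303 to 5456 at high density and 3517 to 3812 at regular density. Of 5 tested osteoblast markers 3 were higher and 0 lower, with sums of 26670 to 26728 at high density and 18310 to 19649 at regular density. Of 4 tested adipocyte markers 3 were higher and 0 lower, with sums of 1105 to 1177 at high density and 687 to 690 at regular density. Of 7 tested endothelial markers 2 were higher and 0 lower, with sums of 1185 to 1509 at high density and 884 to 1037 at regular density. Under background on all 4 arrays were the macrophage markers Cd163 and Marco, the B cell marker Ms4a1, the osteoblast marker Bglap and the fat cell hormone gene Adipoq, but 0 of the smooth muscle and fibroblast markers. Their part in the changes of the CCN genes, Crim1 and Ankrd1 was not tested, and in RNA from mixed cells a change in the number of cells of a type cannot be told apart from a change of RNA per cell.

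Neither Yap1 nor Wwtr1, the genes of the coactivators themselves, passed the test at the level of RNA. Yap1 read 618.7 and 605.9 at high density, against 494.3 and 508.2 at regular density, with a log2 change of 0.18 (SE 0.14, adjusted p = 0.358 with limma). Wwtr1, which encodes TAZ, read 278.7 and 321.8 at high density, against 234.6 and 262.6 at regular density, with a log2 change of 0.17 (SE 0.11, adjusted p = 0.286). YAP and TAZ are controlled by phosphorylation and by their place in the cell, which arrays do not measure.

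Of 9 tested genes for YAP, TAZ, TEAD factors and their cofactors, 1 rose and 1 fell (11.1% each), beside 13.0% and 17.9% of all features. The DNA-binding partner Tead3 rose by 0.69 on the log2 scale (SE 0.13, adjusted p = 0.0122 with limma). Vgll3 and Vgll4, which bind TEAD factors in competition with YAP, had log2 changes of 0.29 (SE 0.13) and 0.21 (SE 0.12) and did not pass. Tead1, too dim to test, read 40.7 and 44.8 at high density, against 11.2 and 24.2 at regular density, where it lay under background on both arrays, and was at least 1.2-fold higher. Tead4 was not analysed here, and Tead2, also too dim to test, read 38.9 and 50 at high density, against 33.9 and 62.4 at regular density.

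Of 21 tested Hippo kinases, scaffolds and their regulators, 1 rose (4.76%) and 2 fell (9.52%), beside 13.0% and 17.9% of all features. The other 18 did not pass, and the median log2 change was -0.08. Wtip, of the LIM proteins that inhibit the Lats kinases, rose by 0.59 (SE 0.11, adjusted p = 0.0111 with limma). The stress kinase Nuak2 fell by 0.48 (SE 0.13, adjusted p = 0.0340) and Rassf5, a scaffold for the Stk kinases, by 0.43 (SE 0.13, adjusted p = 0.0474). The phosphatase Ptpn14, which binds YAP, had a log2 change of 0.52 (SE 0.16, adjusted p = 0.0537). With the authors' values 4 of the 21 rose and 2 fell, and without high density replicate 1 the counts were 1 and 0. Lats1 was too dim to test.

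Among 32 tested targets of YAP and TEAD other than the 10 genes, 10 rose (31.2%) and 5 fell (15.6%), beside 13.0% and 17.9% of all features, and 17 did not pass. Their median log2 change was 0.23, or 0.14 and 0.22 within replicate numbers 1 and 2, beside -0.08 over all features. That median was 0.07 with the stricter filter on dim probes, 0.10 under median scaling and 0.33 without scaling. The changes of Nt5e and Gadd45a were known when the list was drawn up. Nt5e also stands in the fibroblast list, and Nuak2 and Ptpn14 also stand in the Hippo list. They are not the only genes that these lists share.

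Hbegf, a growth factor of the EGF family, read 777.4 and 886.8 at high density, against 242.1 and 260.1 at regular density, and rose by 1.62 on the log2 scale (SE 0.11, adjusted p = 2.98e-04 with limma). The ectonucleotidase Nt5e rose by 1.57 (SE 0.10), the secreted follistatin-like protein Fstl1 by 1.05 (SE 0.10) and F3, the tissue factor that starts blood clotting, by 1.02 (SE 0.12). The 5 that rose by a fold under 2 had log2 changes of 0.47 to 0.85.

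The targets that fell by a fold of 2 or more were Gadd45a and Igfbp3. Gadd45a, a gene of the DNA damage response, read 3732 and 4096 at high density, against 11895 and 11219 at regular density, and fell by 1.67 on the log2 scale (SE 0.14, adjusted p = 6.62e-04 with limma). Igfbp3, a carrier of insulin-like growth factors, fell by 1.05 (SE 0.12, adjusted p = 0.00204). The other 3 had log2 changes of -0.86 to -0.47. Both rises and falls were thus called in this list, as among the 10 genes. The share that rose was 31.2%, beside 13.0% of all features, and the share that fell was 15.6%, beside 17.9%.

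**Figure D5:**
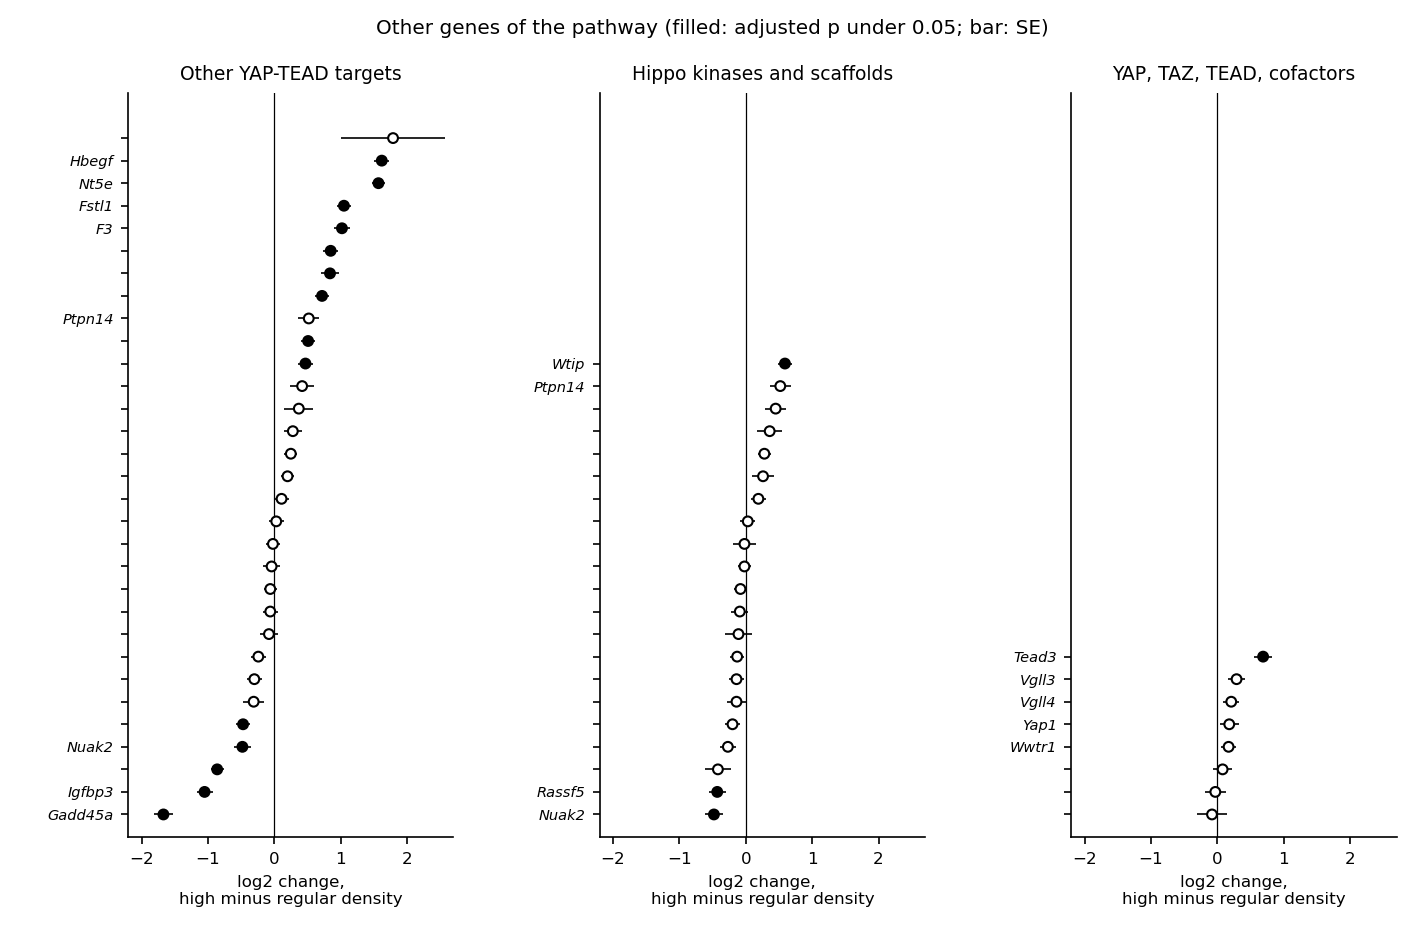
Log2 change, high density minus regular density (horizontal axis), with its SE, for tested YAP-TEAD targets other than the 10 genes (left, 31 genes drawn), Hippo kinases and scaffolds (middle, 21 genes) and YAP, TAZ, TEAD factors and cofactors (right, 8 genes drawn); filled points passed an adjusted p of 0.05, and genes named in the text are labelled. Hbegf and Nt5e lie far to the right and Gadd45a far to the left (-1.67) among the targets, and the genes drawn of the other lists lie nearer to 0. The unlabelled target furthest to the right is Tgfb2 (1.79, SE 0.78), which did not pass and entered the test only through high density.

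Of 13 tested receptors for CCN proteins, 2 rose (15.4%) and 1 fell (7.69%), beside 13.0% and 17.9% of all features. Their median log2 change was 0.19. Itgb1, the integrin subunit shared by several of these receptors, rose by 0.56 (SE 0.13, adjusted p = 0.0233 with limma), and the growth factor receptor Fgfr2 rose by 0.72 (SE 0.16, adjusted p = 0.0187). Lrp1, the endocytic receptor that binds Ctgf, fell by 0.86 (SE 0.11, adjusted p = 0.00310). The integrin subunit Itgb5 had a log2 change of -0.42 (SE 0.13, adjusted p = 0.0536). The count of called receptors was 1 without high density replicate 1 and 6 under cyclic loess.

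Among 8 tested partners of Axl and Crim1, 1 was called higher and 0 lower, beside 13.0% and 17.9% of all features. Bmper, a secreted protein that binds bone morphogenetic proteins, read 144.9 and 184.0 at high density, against 13.1 and 38.6 at regular density, where 1 of 2 arrays lay above background. Its means of 7.30 at high density and 4.54 at regular density, on the scaled log2 scale, lay on either side of the filter of 5.62. It therefore entered the test only through high density, and its fitted log2 change of 2.75 is a description. Of the relatives and sarcomere partners of Ankrd1, Ankrd2 and Ankrd23 lay under background on all 4 arrays. The giant sarcomere protein gene Ttn rose by 0.53 (SE 0.16, adjusted p = 0.0478), a call that ended under each other scaling tried, and desmin, Des, had a log2 change of -0.44 (SE 0.22, adjusted p = 0.168).

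The named genes whose pattern over the 4 arrays lay nearest to a YAP readout were listed by Euclidean distance between mean-centred log2 values, among 10649 tested named genes. Nearest to Cyr61 were the potassium channel gene Kcnk2 (distance 0.04, log2 change 0.79), Idi1 of isoprenoid synthesis (0.05, log2 change 0.81) and Prrg4 (0.06, log2 change 0.77). Nearest to Ctgf were Slc35f5, Vxn and the collagen gene Col1a2, at distances of 0.01, 0.01 and 0.02, each with a log2 change of 0.09. With 4 arrays many genes share a pattern, so the distances are a description.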

How the data were processed

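Cy3-labelled RNA from 4 cultures was read on 1-colour Agilent arrays. Per the file headers, the deposited spot table holds intensity as the scanner software finally processed it, and the submitters' processing notes name Agilent Feature Extraction 11.0.1.1. The authors deposited a second table with intensity per probe and normalized log2 values, and the series matrix holds the same log2 values; the normalization method is not given in the sources used here. Of 44254 spots, 1377 controls were left out, log2 intensities of repeated spots were averaged into 30367 probes, and each array was scaled to its 75th percentile. The brightest probe stood for a gene, and features with a mean log2 value above 5.62 were tested (13681). Groups were compared with limma 3.58.1 (R 4.3.3) with a variance trend, two-sided, with Benjamini-Hochberg adjustment over all tested features and a threshold of 0.05, leaving 2 residual degrees of freedom plus 4.43 from moderation. The method was tested on simulated data. Background was the 99th percentile of 153 negative control spots; intervals are 95%. RefSeq named the probes and gave the promoters. Genes named from other lists passed the test with a fold of 2 or more, or were the 4 with the smallest p; YAP, TAZ, TEAD and defining cell markers were named whatever their values. The 10 genes and the lists were chosen with earlier results of these data known. Alternatives covered scaling, the authors' values, filters, probe choice, variance models, a replicate block and the removal of single arrays. A filter on the negative controls was added after seeing the data. Some genes counted in the lists are not reported here.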

Additional observations from a re-analysis of the deposited data

How the results depend on the processing

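Of the 10 genes, Crim1, Cyr61, Nov and Wisp2 kept their sign under each of the 19 alternatives. They passed the threshold under each that used all 4 arrays. Ankrd1 did the same under the 18 alternatives that tested it, and it was not tested under the stricter filter. It passed the main filter only through regular density, so its calls under that filter are no added support. Over the 189 pairs of a gene and an alternative, 172 kept sign and side of the threshold, 12 newly passed it, 5 turned sign and 0 lost a call. The series matrix repeats the authors' normalized values, so its pairs are not separate from theirs. Ctgf gave 0.38 under quantile scaling, 0.41 under cyclic loess and 0.39 in the authors' values and the series matrix, all past the threshold, and -0.04 under median scaling. Lats2 passed at 0.37 under cyclic loess and 0.32 in the authors' values and the series matrix. Axl passed at -0.41 under median scaling and -0.37 for the mean of its probes. Amotl2 turned to 0.08 without scaling and 0.01 under cyclic loess. With each array left out, Amotl2 ran from -0.21 to 0.16 and Wisp1 from 0.13 to 0.55, and Wisp1 passed without regular density replicate 2.

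The number of called features was 4233 (1780 higher and 2453 lower). It was 1972 without scaling (1394 higher and 578 lower), 4449 under median scaling (1203 and 3246), 3709 under quantile scaling (1833 and 1876) and 3462 under cyclic loess (1943 and 1519). With each array left out it ran from 2412, without high density replicate 1, to 3961. Replicate numbers share no stated experiment, and deviations of same-numbered arrays from their group means correlated at 0.368 over tested features. With a replicate block 7020 features were called, and Wisp1 (0.34) and Axl (-0.29) passed, while no other call among the 10 genes changed.

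Called genes in the smaller lists moved as follows. Hippo kinases and scaffolds (3 called) had 5 under quantile scaling, 6 in the authors' values and the series matrix, 9 with the replicate block and 1 to 4 with each array left out. Receptors for CCN proteins (3) had 5 under quantile scaling, in the authors' values and the series matrix, with no filter and with the stricter filter, 6 under cyclic loess, 8 with the replicate block and 1 to 4 with each array left out. The YAP, TAZ and TEAD list (2) had 1 without scaling, for the mean of a gene's probes and with no variance trend, and 1 to 2 with each array left out. Partners of Axl and Crim1 (1) had 4 with no filter, 0 for the mean of a gene's probes, 3 with the replicate block, 3 with the filter on negative controls and 1 to 2 with each array left out. The ankyrin repeat list (1) had 0 under quantile, median and no scaling, cyclic loess, the authors' values, the series matrix and no variance trend, and 0 to 1 with each array left out. The causes were not tested. With 2 arrays per group precision is limited, and Ankrd1 is the only one of the 10 genes near background.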
